A study of Mus musculus with 45 samples.

Results

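Livers of wild-type C57BL/6J mice that had eaten a high-fat diet (HFD) for 16 weeks were set against livers from mice on the diet for 6 weeks, all of them treated with metformin. The 6 libraries, 3 in each group, were picked by their titles from 45 liver mRNA libraries in 14 groups, and every gene of the deposited count tables entered the comparison. In the 16-week group HFD began at 8 weeks of age, and in the 6-week group at 18 weeks, so both groups were 24 weeks old when the liver was taken after an overnight fast. Metformin was given in the drinking water at 270 mg/kg of lean body mass per day, started at 8 or 18 weeks of age, and none of these mice received insulin. The labels do not say which start belonged to which group. The length of the diet, the age at its start and possibly the length of the metformin treatment therefore cannot be told apart. The mice were not genetically modified, their sex is not given in the sources used here, and RNA came from pulverised whole liver, in which fewer cells of a type and less RNA per cell cannot be told apart. Livers of the same 2 diets without metformin or insulin (basal; 3 libraries each) gave a second 16-week against 6-week contrast that shares no library with the first.

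Metformin is a drug against type 2 diabetes that accumulates in the liver, where it lowers glucose output and can inhibit respiratory complex I and raise the activity of the energy sensor AMPK. Prolonged HFD feeding loads hepatocytes with lipid and is known to engage the unfolded protein response, in which the sensors IRE1, PERK and ATF6 of the endoplasmic reticulum (ER) raise the transcription of chaperones, folding enzymes and components of ER-associated degradation. ATF6 and XBP1 act on a promoter motif called the ER stress response element, and PERK acts through ATF4, which in turn induces the transcription factor CHOP (gene Ddit3).

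The ER stress response element, searched as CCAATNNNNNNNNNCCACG on either strand in RefSeq promoters (GRCm38.p6, 250 bases before to 50 bases after each start), was present in 10 of the 21 unfolded protein response genes with a promoter entry and in 0.137% of the 27025 genes with one. The related element, ATTGG followed by any base and CCACG, was present in 2 of the 21 genes and in 0.0444% of all genes. Because the list was assembled from known genes of this pathway, a high share in it is no independent result, and no match says only that these letters are not in this window. The stretches of Hspa5, Creld2, Syvn1 and Derl3 are shown because their values are described below, and that of Dnajb11 as an example of the second element. Each is written on the gene's strand, and capitals mark the element or its reverse complement.
Hspa5, chr2:34772005-34772063 (+): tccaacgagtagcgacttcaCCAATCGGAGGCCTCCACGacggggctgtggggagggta
Creld2, chr15:88819500-88819558 (+): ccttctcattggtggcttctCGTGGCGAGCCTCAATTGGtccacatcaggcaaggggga
Syvn1, chr19:6046512-6046570 (+): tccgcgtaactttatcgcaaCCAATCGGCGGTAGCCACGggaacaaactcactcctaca
Derl3, chr10:75893222-75893280 (+): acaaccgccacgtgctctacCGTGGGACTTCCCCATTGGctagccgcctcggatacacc
Dnajb11, chr16:22857832-22857882 (+): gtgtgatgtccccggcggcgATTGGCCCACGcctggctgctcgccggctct

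The 6 libraries held 19181125 to 23673176 counted reads. Hepatocyte markers (11 genes) summed to 128000 to 147000 CPM (counts per 1000000 counted reads, with library sizes scaled by the TMM factors of edgeR) in 16-week and 110000 to 130000 CPM in 6-week livers. The 16-week HFD metformin group was the least uniform of all 14 groups: the median SD of log2 CPM over genes was 0.304 in it and 0.154 in the 6-week HFD metformin group, and 0.129 to 0.207 in the other 12. Its replicate 1 stood apart by gene length. Setting each library against the average of all 6, gene by gene, gave Spearman correlations with exon length of -0.57 in replicate 1, 0.28 in replicate 2 and 0.26 in replicate 3 of the 16-week group, and of 0.33, 0.26 and 0.13 in the 6-week group. In the 1407 genes with the shortest exons (60 to 1135 bases) replicate 1 lay a median of 0.53 log2 units above the mean of the 6 libraries, and in the 1407 genes with the longest (6216 bases and more) it lay at -0.53, while the other 5 libraries stayed between -0.13 and 0.14 in both bins.

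**Figure D1:**
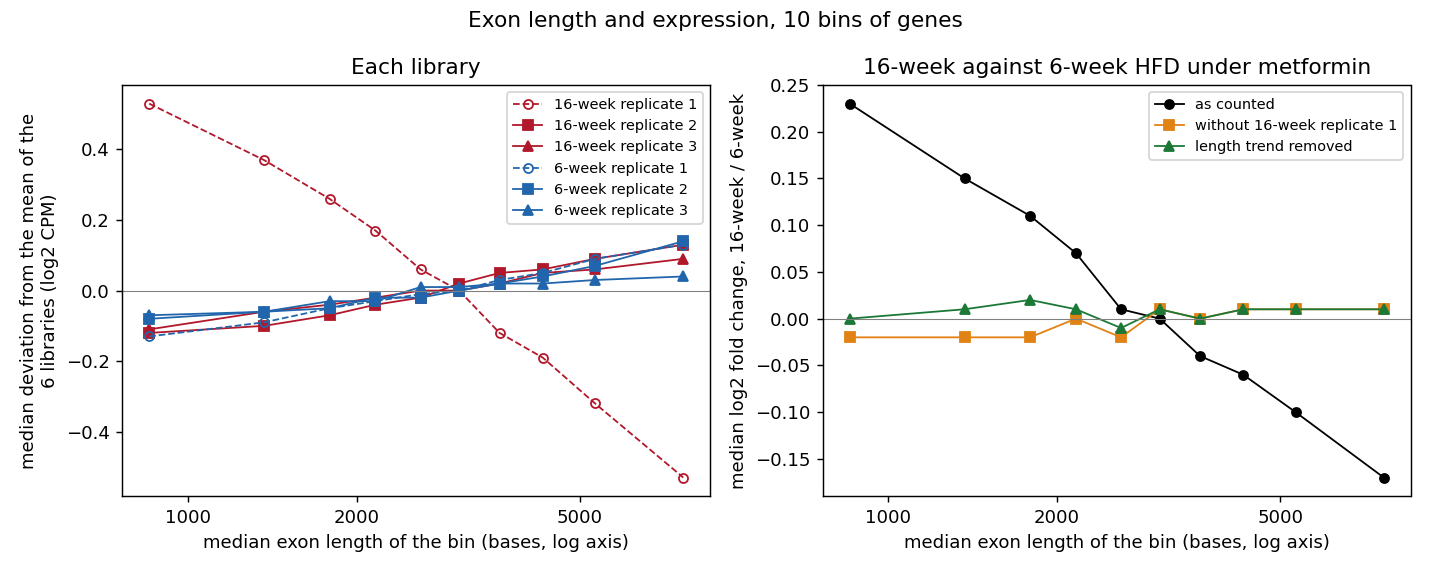
Exon length (x axis, bases, log scale, 10 bins of genes) against expression in the 6 libraries. The left panel plots each library's median deviation from the mean of the 6 (log2 CPM); the right panel plots the median log2 fold change, 16-week over 6-week HFD under metformin, as counted, without 16-week replicate 1 and with the length trend removed. Replicate 1 of the 16-week group runs from 0.53 to -0.53 while the other 5 libraries stay between -0.13 and 0.14.

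The fold changes followed the same slope. Their Spearman correlation with exon length over genes was -0.38, and the median log2 fold change was 0.23 in the shortest bin and -0.17 in the longest. Without 16-week replicate 1 the correlation was 0.05, and with a smooth length trend taken out of each library it was 0.02. The values below are therefore given as counted, with the trend removed and, where it matters, without that library. In the basal contrast the correlation was -0.09.

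The number of genes that differed between the groups was small with edgeR and larger with DESeq2. With edgeR's quasi-likelihood test over all 45 libraries, 3 of 14067 genes passed a Benjamini-Hochberg adjusted p of 0.05 (0.0213%), all of them higher after 16 weeks: Atox1, Ddit3 and Ostc. DESeq2 called 134 of 19456 genes at the same threshold, 97 higher and 37 lower, the 3 among them. At an unadjusted p under 0.05 there were 1282 higher genes (9.11%) and 828 lower genes (5.89%), together 15% of the genes tested. In a fit of the 6 libraries alone that share was 4.21% of 12626 genes, with none called. With the length trend removed none was called either, and 886 genes (6.3%) were higher and 607 (4.32%) lower at an unadjusted p under 0.05. Single libraries moved the count: 753 genes were called without 16-week replicate 2, 652 without its replicate 3, 9 without its replicate 1, 2 without 6-week replicate 3 and none without 6-week replicate 1 or replicate 2. In the 45-library fit the 95% interval of the fold change lay within 2-fold in either direction for 77.1% of genes. That fit shares 1 estimate of the spread among all 14 groups. The 16-week HFD metformin group varied more than the others, so these intervals may be too narrow for this comparison.

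The 3 called genes, named here because so few passed, have roles in copper handling, stress signalling and protein glycosylation. Atox1 (mm9 chromosome 11, 55260145 to 55274640, minus strand) encodes a copper chaperone of the cytosol. It had 200, 133 and 135 CPM in the 16-week and 103, 103 and 93.4 CPM in the 6-week libraries, so the groups did not overlap and replicate 1 was the highest. Its log2 fold change was 0.64 ± 0.11 (SE; adjusted p = 0.031), and with the length trend removed it was 0.36 (adjusted p = 0.169); its exons total 438 bases.

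Ddit3 (chromosome 10, 126727849 to 126733344, plus strand), the stress transcription factor CHOP, had 16.2, 22 and 15.8 CPM in 16-week and 6.99, 4.68 and 9.17 CPM in 6-week livers. Every 16-week library was above every 6-week library, and replicate 1 was close to replicate 3. The log2 fold change was 1.37 ± 0.26 (adjusted p = 0.0434), and 1.22 with the length trend removed (adjusted p = 0.169). Exons of Mars lie on the opposite strand there, and in unstranded libraries the reads of such genes cannot be told apart; 1.69% of the 40-base words in Ddit3 transcripts were also found in Mars transcripts. Ostc (chromosome 3, 130398835 to 130412362, minus strand), a subunit of the oligosaccharyltransferase that N-glycosylates proteins entering the ER, had 56.4, 62.2 and 49.4 CPM at 16 weeks and 36, 35.9 and 38 CPM at 6 weeks. Its groups did not overlap, and its log2 fold change was 0.61 ± 0.12 (adjusted p = 0.0434), or 0.47 with the length trend removed (adjusted p = 0.178).

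When 16-week replicate 1 was left out, 9 genes were called (0.063% of 14284), and several encode proteins of the ER. Ddit3 remained (1.44), and the others that were higher were Creld2, Dnajb9, Syvn1, Ccdc134, Gmppb, Thbd and Lysmd3, with Ccdc111 lower. With the length trend also removed, 12 were called (0.084%), the additions being Ostc, Sdf2l1 and Gfpt1. These fits leave 2 libraries in the 16-week group. In the library left out, Lysmd3, Gfpt1, Dnajb9 and Syvn1 were below every 6-week library, and Thbd and Sdf2l1 were within their range. The remaining called genes kept their direction in it. With all 6 libraries the log2 fold change was 0.26 for Lysmd3 (adjusted p = 0.592) and 0.35 for Gfpt1 (adjusted p = 0.424). Dnajb9 (ERdj4, a co-chaperone of BiP) had a log2 fold change of 1.03 without replicate 1 (adjusted p = 0.0259) and 0.71 with all 6 libraries (adjusted p = 0.139). Ccdc134 had 6.65, 10.5 and 7.41 CPM in 16-week and 3.69, 3.58 and 4.9 CPM in 6-week livers, with a log2 fold change of 1.14 without replicate 1 (adjusted p = 0.0347). Gmppb, which makes GDP-mannose for glycosylation, had 17.5, 26.8 and 21.1 CPM at 16 weeks and 12, 14.5 and 13.8 CPM at 6 weeks, although 28.4% of its 40-base words also occur in other transcripts, Rnf123 on the opposite strand among them. In both genes the groups did not overlap with all 6 libraries either.

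The whole list of 25 unfolded protein response genes had positive log2 fold changes, with a median of 0.58 against 0.01 over all genes tested. None of the 25 was called, and 20 of them were higher at an unadjusted p under 0.05, where the share over all genes was 9.11%. With the length trend removed the median was 0.57 and the count 21 (6.3% of all genes), and without 16-week replicate 1 they were 0.80 and 23 (3.69% higher and 3.23% lower over all genes). A fit of the 6 libraries alone gave 13 such genes (1.94% of all genes). The groups did not overlap in 8 of the 25 genes, all higher after 16 weeks, where 6.33% of all genes did so in that direction and 6.05% in the other.

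The libraries of the 16-week group differed widely in these genes. The median deviation of the list from the mean of the 6 libraries was -0.26, 0.85 and 0.21 log2 units in 16-week replicates 1 to 3, against -0.20, -0.45 and -0.14 in the 6-week livers. Replicate 2 was the highest and replicate 1 lay among the 6-week livers, and with the length trend removed replicate 1 was still at -0.28. Hspa5, the chaperone BiP that holds the stress sensors inactive, had 1130, 3040 and 1880 CPM in 16-week and 994, 784 and 1130 CPM in 6-week livers. Creld2, a secreted stress-response protein, had 70.7, 257 and 146 CPM at 16 weeks and 54.3, 37.1 and 67 CPM at 6 weeks. Its groups did not overlap, but replicate 1 was just above the highest 6-week library. Its log2 fold change was 1.58 ± 0.38 (adjusted p = 0.0919), or 1.93 without replicate 1 (adjusted p = 0.0347).

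In Sdf2l1, Syvn1 and Manf too, replicate 2 was the highest and replicate 1 the lowest of the 16-week group. Sdf2l1, a component of the ER chaperone complex, had 17.7, 105 and 42 CPM in 16-week and 19.3, 8.58 and 23.4 CPM in 6-week livers (1.68 ± 0.46, adjusted p = 0.112). Syvn1, the ubiquitin ligase HRD1 of ER-associated degradation, had 67.1, 306 and 182 CPM at 16 weeks and 79.1, 69.4 and 102 CPM at 6 weeks (1.15 ± 0.34, adjusted p = 0.14). In both genes 16-week replicate 1 was below at least 1 library of the 6-week group. Exons of Mrpl49 lie on the opposite strand at Syvn1, so reads in the overlap cannot be told apart. Manf, a secreted ER stress factor, had 116, 255 and 155 CPM at 16 weeks and 83, 64.2 and 94.1 CPM at 6 weeks, with no overlap (1.12 ± 0.29, adjusted p = 0.105). Sec61b, of the channel that passes proteins into the ER, had 58.1, 52.8 and 42 CPM at 16 weeks and 32.8, 38.1 and 38.6 CPM at 6 weeks, and its fold change of 0.48 (adjusted p = 0.0919) was 0.25 with the length trend removed; 20.5% of its 40-base words occur in other transcripts. The mRNAs of the transcription factors themselves had log2 fold changes of 0.13 for Xbp1 and 0.04 for Atf6, neither called.

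**Figure D2:**
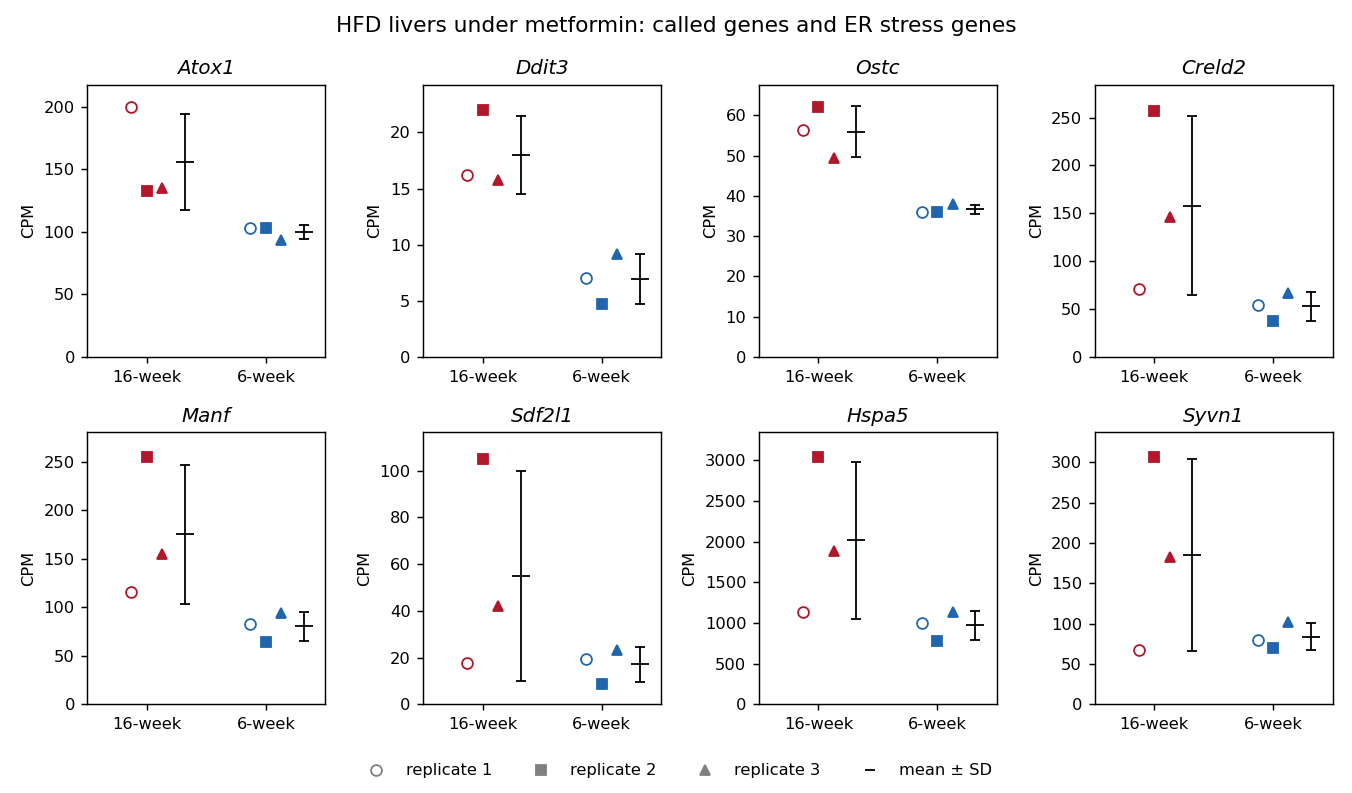
CPM (y axis) of Atox1, Ddit3, Ostc and 5 unfolded protein response genes in each library, with 16-week HFD metformin livers in red on the left and 6-week HFD metformin livers in blue on the right; bars are mean ± SD (n = 3). Replicate 2 of the 16-week group is the highest for all panels except Atox1, and its replicate 1 lies near the 6-week livers for Creld2, Sdf2l1, Hspa5 and Syvn1.

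The 10 unfolded protein response genes whose promoter held the ER stress response element had a median log2 fold change of 0.64. Of these, 8 were higher at an unadjusted p under 0.05 (9.11% of all genes). Over the whole list of 25, with or without the element, the median was 0.58 and 20 were higher. The part of the element in these values was not tested. The other 10 tested genes with the element had a median of 0.00, 4 of them positive, and 1 of the 10 was higher at that threshold: Alg12 (0.57), a mannosyltransferase of the ER. Derl3, of ER-associated degradation, had the largest value among the 20, at 2.41 with all libraries (adjusted p = 0.137). Its groups overlapped. Without 16-week replicate 1 its value was 2.94 (adjusted p = 0.0679).

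The integrated stress response, the arm that runs through ATF4, contained the called gene Ddit3. Of its 20 genes, 4 were higher and 1 lower at an unadjusted p under 0.05 (9.11% and 5.89% of all genes), with a median of 0.35. Atf4 itself had 104, 91.2 and 74.3 CPM at 16 weeks and 73.6, 66.5 and 71.8 CPM at 6 weeks, with no overlap (0.35 ± 0.14, adjusted p = 0.238). Slc3a2, the heavy chain of amino acid transporters, had a log2 fold change of 0.31 (adjusted p = 0.251), and Atf3, a stress transcription factor, one of 1.21 (adjusted p = 0.31) at 1.56 to 2.7 CPM in 16-week and 0.275 to 1.29 CPM in 6-week livers. Heat shock genes of the cytosol and mitochondria were positive in 16 of 16 cases with a median of 0.36, and 10 of the 16 were higher without overlap between groups (6.33% of all genes). None was called, and 4 were higher at an unadjusted p under 0.05 (9.11% of all genes), or 2 with the length trend removed or without 16-week replicate 1. Bag3, a co-chaperone of Hsp70, had 59.3, 56 and 46.7 CPM at 16 weeks and 33.6, 33.7 and 35.7 CPM at 6 weeks (0.65 ± 0.26, adjusted p = 0.239). Dnaja1, another Hsp70 co-chaperone, had 607, 552 and 595 CPM at 16 weeks and 492, 477 and 444 CPM at 6 weeks, with 21.4% of its words shared with other transcripts.

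Genes of the respiratory chain were higher as counted and close to equal once exon length was taken into account. Of 36 complex I subunits, the complex that metformin can inhibit, 36 had positive fold changes with a median of 0.34. At an unadjusted p under 0.05, 30 were higher (9.11% of all genes). With the length trend removed the median was 0.08 and the count 6 (6.3% of all genes). Without 16-week replicate 1 they were 0.03 and 1 (3.69% of all genes). None was called. Their median exon length was 666 bases, against 2815 over all genes. Ndufs6, a subunit of the NADH-oxidising module, had 134, 68.2 and 62.3 CPM in 16-week and 63.3, 59.6 and 61 CPM in 6-week livers, so replicate 1 alone was far from the other 5. Ndufv1, the subunit that binds NADH, had 265, 170 and 171 CPM at 16 weeks and 151, 157 and 142 CPM at 6 weeks, and its log2 fold change of 0.43 (adjusted p = 0.103) was 0.30 with the length trend removed. Ndufa11, a membrane-arm subunit, had 81.6, 46.9 and 46.1 CPM at 16 weeks and 40.8, 39.7 and 43.7 CPM at 6 weeks, with 0.49 as counted and 0.47 with the trend removed, and 0.17 without replicate 1.

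The same held for other short housekeeping genes. Over all genes, 9.11% were higher at an unadjusted p under 0.05 as counted. With the length trend removed, 6.3% of all genes were higher and 4.32% lower. Complexes II to V (38 genes, median 0.29, 23 higher at an unadjusted p under 0.05) had a median of 0.07 and 3 such genes with the length trend removed. Cox6a1, of cytochrome c oxidase, had 404, 272 and 258 CPM at 16 weeks and 226, 240 and 232 CPM at 6 weeks. Cytosolic ribosomal protein genes (71, median 0.20, 18 higher) had a median of -0.03 and none higher with the trend removed, where 3 were lower. Rps15 of the small subunit had 321, 187 and 176 CPM at 16 weeks and 171, 168 and 184 CPM at 6 weeks, and 40.5% of its words lie in other transcripts. Proteasome subunits (31, median 0.24, 11 higher) had a median of 0.05 and 3 higher with the trend removed. Psmd8, of the regulatory particle, had 184, 131 and 125 CPM at 16 weeks and 117, 120 and 126 CPM at 6 weeks. In each of these genes replicate 1 was the highest library and the other 2 of its group were near the 6-week livers, except for Cox6a1, in which they were also above them.

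**Figure D3:**
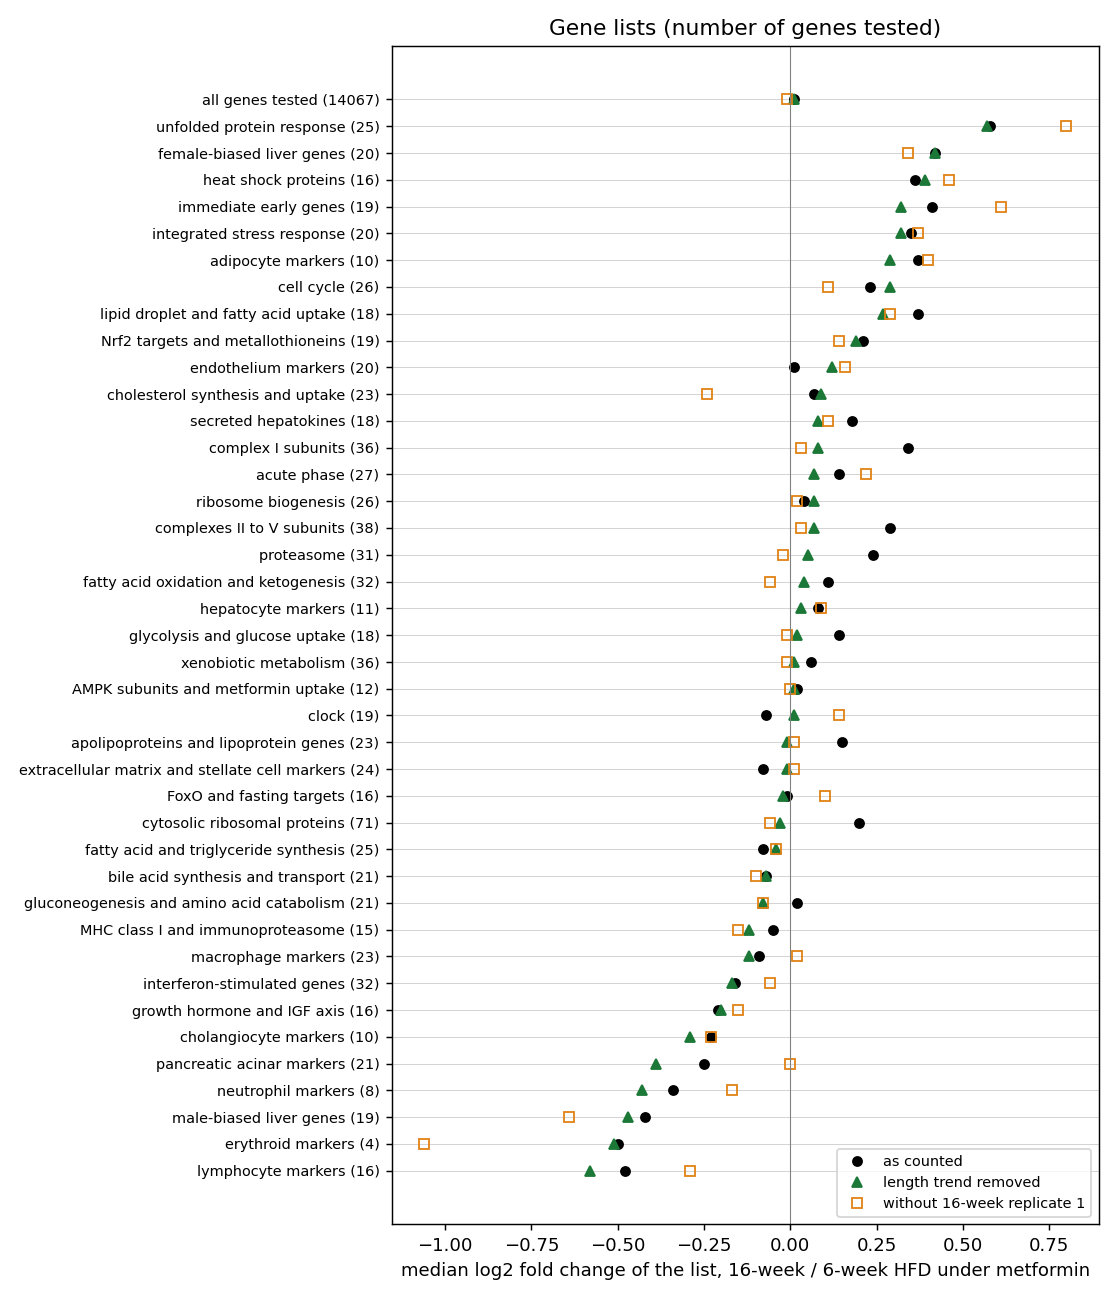
Median log2 fold change, 16-week over 6-week HFD under metformin (x axis), of 40 gene lists and of all genes tested (y axis, number of genes in brackets), as counted (circles), with the length trend removed (triangles) and without 16-week replicate 1 (squares). The list of skeletal muscle markers, at -3.78, is left out for scale; the unfolded protein response stays at 0.57 or above, while complex I moves to 0.08 and 0.03.

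Genes with a known male bias in liver leaned lower after 16 weeks and those with a female bias leaned higher, without any called member in either list. Of 19 male-biased genes 15 had a negative fold change and 4 a positive one; the median was -0.42, 5 were lower at an unadjusted p under 0.05 (5.89% of all genes), and 7 were lower without overlap (6.05% of all genes). These values were -0.47 and 5 with the length trend removed, and -0.64 and 5 without 16-week replicate 1. Cyp4a12b, an omega-hydroxylase of arachidonic acid, had 17.9, 11.8 and 20.3 CPM in 16-week and 43, 43.2 and 76.3 CPM in 6-week livers (-1.70 ± 0.41, adjusted p = 0.0919); 56.2% of its 40-base words occur in other transcripts, chiefly Cyp4a12a, so its counts are uncertain. Hsd3b5, a hydroxysteroid dehydrogenase, had 6.19, 7.62 and 25.6 CPM at 16 weeks and 68.7, 80.4 and 78.7 CPM at 6 weeks (-2.52 ± 1.15, adjusted p = 0.299), with 27% of its words shared. C6, a complement component, had 91, 115 and 110 CPM at 16 weeks and 153, 134 and 231 CPM at 6 weeks (-0.71 ± 0.26, adjusted p = 0.202).

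The female-biased list was mixed: 13 of 20 genes were positive, with a median of 0.42. Of the 20, 4 were higher at an unadjusted p under 0.05 (9.11% of all genes), also with the length trend removed. Without overlap between groups, 7 were higher and 2 lower (6.33% and 6.05% of all genes). The 4 genes below are those with the smallest adjusted p. Cyp2b9, a cytochrome P450 whose level in male mice is low, had 341, 247 and 285 CPM in 16-week and 80.9, 128 and 19.5 CPM in 6-week livers (1.93 ± 0.60, adjusted p = 0.157). The related Cyp2b13 had 13.7, 8.81 and 10.2 CPM at 16 weeks and 2.8, 3.52 and 0.54 CPM at 6 weeks, and the 2 genes share sequence (16.8% and 32.7% of their words occur in other transcripts). Slc22a27, an organic anion transporter, had 15.3, 10.5 and 8.51 CPM at 16 weeks and 4.31, 4.95 and 1.66 CPM at 6 weeks (1.66 ± 0.51, adjusted p = 0.157; 37.7% of words shared). Hao2, a peroxisomal oxidase of hydroxy acids, had 4.45, 2.68 and 3.05 CPM at 16 weeks and 1.34, 1.6 and 0.27 CPM at 6 weeks. In all 4 genes the 3 libraries of the 16-week group were above those of the 6-week group.

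Growth hormone acts on hepatocytes through STAT5, drives circulating IGF1 and sets most of the sex bias of the liver. Of 16 genes of the growth hormone and IGF axis, 5 were lower and none higher at an unadjusted p under 0.05 (5.89% and 9.11% of all genes), with a median of -0.21 and the same counts with the length trend removed. Without 16-week replicate 1 these were 3 lower and a median of -0.15, and none was called. Igf1, the main secreted target, had 379, 320 and 408 CPM in 16-week and 604, 555 and 512 CPM in 6-week livers, without overlap (-0.59 ± 0.12, adjusted p = 0.0741). Its exons total 7817 bases, and with the length trend removed its value was -0.34 (adjusted p = 0.419); without replicate 1 it was -0.61 (adjusted p = 0.0679). Egfr, the receptor of epidermal growth factor, had 66.4, 163 and 113 CPM at 16 weeks and 188, 289 and 347 CPM at 6 weeks (-1.27 ± 0.35, adjusted p = 0.113), and -1.16 with the trend removed. Socs2, a feedback inhibitor of growth hormone signalling, had 3.18, 3.45 and 2.2 CPM at 16 weeks and 26.5, 3.8 and 11.6 CPM at 6 weeks (-2.24 ± 0.80, adjusted p = 0.199), where 6-week replicate 2 was just above the 16-week livers. Klb, the co-receptor of FGF21, had 21.4, 41.1 and 36.9 CPM at 16 weeks and 49.5, 41.5 and 46.9 CPM at 6 weeks (-0.47 ± 0.16, adjusted p = 0.185), or -0.23 without 16-week replicate 1.

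Of 18 genes of lipid droplets and fatty acid uptake, 15 were positive, with a median of 0.37. At an unadjusted p under 0.05, 3 were higher (9.11% of all genes), as with the length trend removed (median 0.27), and 2 without 16-week replicate 1. Cd36, a fatty acid translocase, had 255, 286 and 271 CPM in 16-week and 148, 175 and 91.2 CPM in 6-week livers, without overlap (0.97 ± 0.30, adjusted p = 0.157; 1.03 with the trend removed). Mogat1, a monoacylglycerol acyltransferase, had 16.5, 4.58 and 5.81 CPM at 16 weeks and 3.02, 3.63 and 2.25 CPM at 6 weeks (1.60 ± 0.44, adjusted p = 0.113), and 0.82 without replicate 1. Plin4, a lipid droplet coat protein, had 83.7, 165 and 120 CPM at 16 weeks and 89.8, 106 and 38.4 CPM at 6 weeks, with overlap (0.66 ± 0.27, adjusted p = 0.248). Adipocyte markers, several of which steatotic hepatocytes also express, summed to 4060, 2980 and 3640 CPM in 16-week and 3010, 3270 and 1310 CPM in 6-week livers, and their part in these values was not tested.

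**Figure D4:**
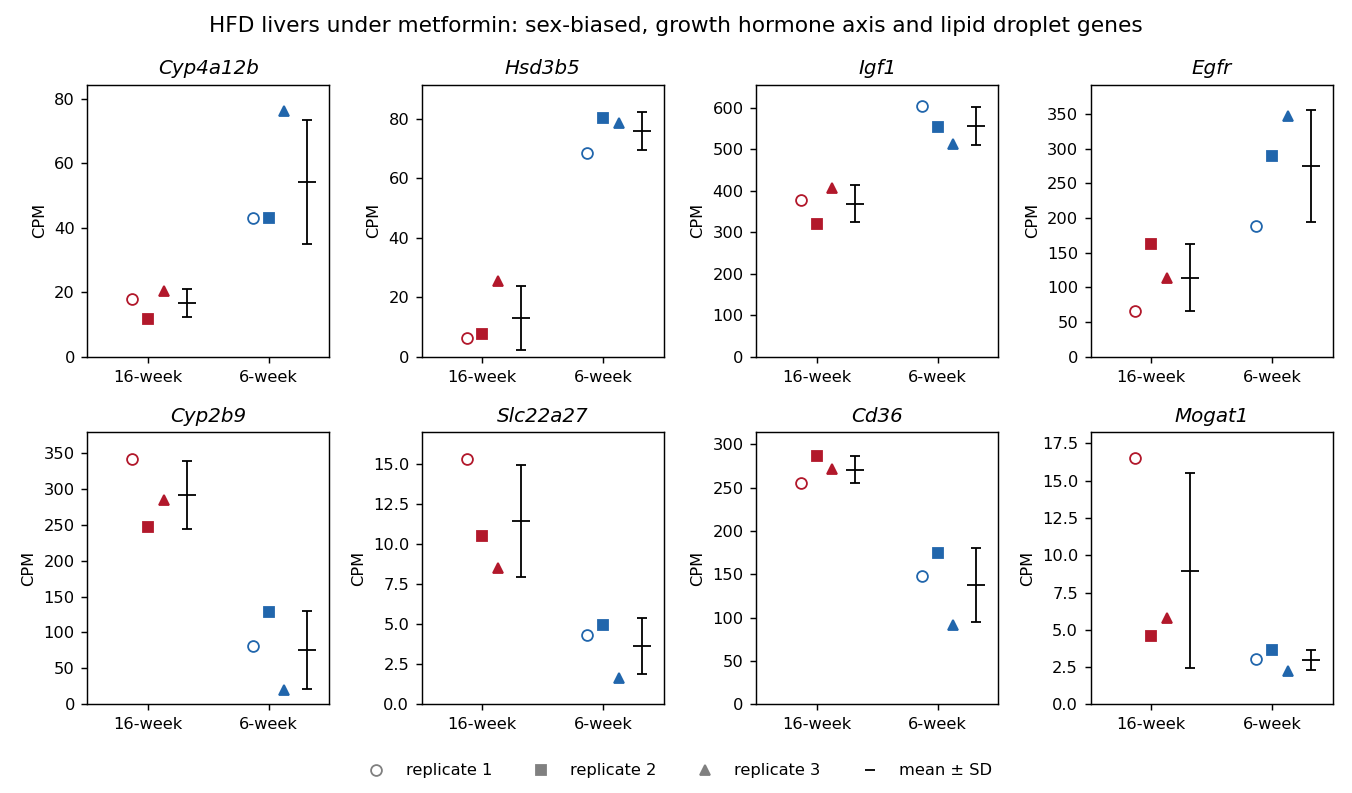
CPM (y axis) of 2 male-biased genes (Cyp4a12b, Hsd3b5), 2 growth hormone axis genes (Igf1, Egfr), 2 female-biased genes (Cyp2b9, Slc22a27) and 2 lipid droplet genes (Cd36, Mogat1) in each library, 16-week HFD metformin livers in red on the left and 6-week HFD metformin livers in blue on the right; bars are mean ± SD (n = 3). In each panel the 2 groups do not overlap, and none of the 8 genes passed an adjusted p of 0.05.

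Metabolic regulators given for every comparison were not called, and their intervals were wide. G6pc, the last enzyme of glucose release, had 230, 161 and 244 CPM in 16-week and 193, 305 and 194 CPM in 6-week livers, a log2 fold change of -0.13 with a 95% interval of -0.86 to 0.61. Pck1, the rate-limiting enzyme of gluconeogenesis, had 2050, 3210 and 3520 CPM at 16 weeks and 3310, 3530 and 4180 CPM at 6 weeks (-0.33, interval -0.78 to 0.12). Ppargc1a, their coactivator, had 7.46, 10.4 and 11.6 CPM at 16 weeks and 10.1, 13 and 9.4 CPM at 6 weeks (-0.14, interval -0.63 to 0.35). Srebf1, which drives lipogenesis, had 94.7, 70.1 and 101 CPM at 16 weeks and 76.9, 116 and 65 CPM at 6 weeks (0.05, interval -0.53 to 0.62). The groups overlapped in all 4 genes.

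The insulin-sensitive genes Igfbp1 and Irs2 overlapped as well. Igfbp1 had 40.5, 106 and 78.7 CPM at 16 weeks and 101, 55.6 and 65.7 CPM at 6 weeks (0.02, interval -1.01 to 1.05), and Irs2 had 0.867, 4.89 and 5.81 CPM at 16 weeks and 6.44, 6.82 and 5.67 CPM at 6 weeks (-0.69, interval -1.71 to 0.33), its low value being that of replicate 1. The stress hormones Fgf21 and Gdf15 had log2 fold changes of 0.56 (interval -0.61 to 1.73) and 0.87 (interval -0.21 to 1.94). Gdf15 had 13.1, 24.4 and 13.9 CPM at 16 weeks and 8.45, 10.3 and 9.4 CPM at 6 weeks, without overlap but with an adjusted p of 0.441. Over whole lists, fatty acid and triglyceride synthesis (25 genes, median -0.08), cholesterol synthesis and uptake (23, 0.07), gluconeogenesis and amino acid catabolism (21, 0.02), clock genes (19, -0.07) and AMPK subunits with metformin transporters (12, 0.02) had at most 1 gene at an unadjusted p under 0.05. Without 16-week replicate 1 the cholesterol median was -0.24 and the clock median 0.14; the cholesterol list deviated from the mean of the 6 libraries by 0.57 in that replicate.

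Inflammatory genes followed single libraries. Interferon-stimulated genes (32, median -0.16) had 3 lower at an unadjusted p under 0.05 (5.89% of all genes), none without 16-week replicate 1, and 24 of 32 not positive, and 6-week replicate 3 carried the highest values: the list deviated from the mean of the 6 libraries by -0.18, 0.02 and 0.00 in 16-week and 0.06, -0.39 and 0.44 in 6-week livers. Igtp, an interferon-induced GTPase, had 51.6, 53.3 and 51.7 CPM at 16 weeks and 64.1, 43.8 and 147 CPM at 6 weeks. Ccl5, a T-cell chemokine, had 0.752, 1.29 and 1.1 CPM at 16 weeks and 0.727, 0.99 and 4.72 CPM at 6 weeks, and without 6-week replicate 3 its log2 fold change was no longer negative, at 0.29, against -1.05 with all 6. Lymphocyte markers (17 genes) summed to 10.9, 20.1 and 19.4 CPM in 16-week and 14.4, 12.4 and 30.6 CPM in 6-week livers, highest in the same replicate 3; macrophage markers (23 genes) summed to 462 to 519 CPM at 16 weeks and 337 to 678 CPM at 6 weeks. Their part in the interferon values was not tested.

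Summed markers of other cell types overlapped between the groups, except those of cholangiocytes and skeletal muscle. Endothelium markers summed to 375 to 500 CPM at 16 weeks and 409 to 437 CPM at 6 weeks, stellate cell and matrix markers to 316 to 442 CPM at 16 weeks and 331 to 433 CPM at 6 weeks, and cholangiocyte markers to 109 to 114 CPM at 16 weeks and 117 to 136 CPM at 6 weeks. Pancreatic acinar markers (21 genes) summed to 25.7 to 43.9 CPM at 16 weeks and 21.4 to 83.7 CPM at 6 weeks, and erythroid markers (9 genes) to 101 to 178 CPM at 16 weeks and 101 to 137 CPM at 6 weeks. Skeletal muscle markers (19 genes) summed to 20.9, 26.5 and 40.5 CPM in 16-week and 228, 70.5 and 68.2 CPM in 6-week livers, with 11 of 19 genes lower without overlap (6.05% of all genes). Acta1, the actin of skeletal muscle, had 0.0578, 1.08 and 2.05 CPM at 16 weeks and 29, 8.58 and 8.99 CPM at 6 weeks (-3.82 ± 1.78, adjusted p = 0.306). The part of these transcripts in other values was not tested.

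The basal livers offered the same contrast without the drug. There 588 genes were higher and 848 lower after 16 weeks at an adjusted p under 0.05 (10.2%), against the 3 genes under metformin. Of those 3, Atox1 was called in basal livers as well (0.50, adjusted p = 0.00492), while Ddit3 (0.10) and Ostc (0.13) were not. Among other genes described above, those called higher there included Ccdc134 (0.67), Gmppb (0.55), Derl3 (2.13), Cox6a1 (0.36) and Mogat1 (1.60). The female-biased Cyp2b9 (2.77), Cyp2b13 (4.39), Slc22a27 (2.47) and Hao2 (3.08) were also called higher. Those called lower included Cyp4a12b (-1.92), Klb (-0.65), G6pc (-1.16), Ccdc111 (-0.54) and Acta1 (-10.89). All of these had the same sign as under metformin. The basal groups also differed in depth, with 20977959 to 23948777 counted reads at 16 weeks and 35117134 to 50253493 at 6 weeks. Their libraries' deviations from the mean of the 14 groups had Spearman correlations with GC content of 0.28, 0.31 and 0.16 at 16 weeks and -0.17, -0.23 and -0.15 at 6 weeks. Skeletal muscle markers (19 genes) had a median log2 fold change of -10.59 there, with 17 called lower. The part of these differences in the basal calls was not tested. Over all genes the median size of the log2 fold change was 0.18 under metformin and 0.21 in basal livers. The median SE was 0.17 in both, but both rest on 1 spread shared by the 14 groups. Equal SEs therefore do not show equal precision. The median SD of log2 CPM was 0.304 at 16 weeks and 0.154 at 6 weeks under metformin. In basal livers it was 0.174 at 16 weeks and 0.129 at 6 weeks. Of the 1436 genes called in basal livers, 1056 had a fold change of the same sign under metformin, where their median size was 0.18, against 0.55 in the basal contrast that chose them. Over genes the 2 sets of fold changes had a Pearson correlation of 0.54 and a Spearman correlation of 0.25; genes are not independent replicates. A gene called in basal livers and not under metformin is not thereby shown to differ, which needs the test of the difference itself.

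That test called 19 genes (0.135%), 9 with a higher and 10 with a lower fold change under metformin than in basal livers. The deviations of same-numbered libraries of the basal and metformin groups had correlations of 0.12 to 0.41, though no label pairs them. With the replicate number as a block 30 genes were called, 18 of the 19 among them. Taking out GC content together with exon length left 8 calls, of which 7 belong to the 19. None was called without 6-week HFD metformin replicate 2 or in a fit of the 12 libraries alone, 12 were called without 16-week HFD metformin replicate 1 (4 of them among the 19) and 47 without its replicate 3. There were 5 without 6-week HFD metformin replicate 1, 3 without 16-week basal replicate 1, 7 without its replicate 2, 3 without 6-week basal replicate 1 or replicate 3, and 4 without its replicate 2. At an unadjusted p under 0.05 the difference was positive for 7.87% and negative for 5.39% of genes. Of the 19 genes, 18 were also called in the basal contrast (all but 4932411L15), and none under metformin. Tmed5, a cargo receptor between ER and Golgi, had 152, 140 and 139 CPM in 16-week and 140, 126 and 160 CPM in 6-week livers under metformin, while basal livers had 100, 68.6 and 92.3 CPM at 16 weeks and 192, 206 and 187 CPM at 6 weeks. Its log2 fold changes were 0.02 under metformin and -1.17 in basal livers, a difference of 1.18 ± 0.20 (adjusted p = 0.00732). In Tmed5 the 3 basal 16-week libraries were the lowest of the 12, while the metformin-treated groups overlapped.

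In Kcnq1ot1 and C4a too, the basal 16-week libraries lay apart from the other 9. Kcnq1ot1, a long non-coding RNA of the Kcnq1 imprinted region, had 13.4, 28.2 and 24.2 CPM at 16 weeks and 31.4, 31.7 and 28.5 CPM at 6 weeks under metformin, and 78.8, 56.3 and 63.5 CPM at 16 weeks and 31.8, 29.9 and 27.9 CPM at 6 weeks in basal livers (difference -1.62 ± 0.31, adjusted p = 0.0231). It lies across Kcnq1 on the opposite strand, so its reads and those of that gene cannot be told apart. The exons of Kcnq1ot1 total 83437 bases. With the length trend removed, its log2 fold change under metformin went from -0.47 to 0.05. The difference was then -1.25 and no longer called (adjusted p = 0.0508). C4a, a complement component, had 62.8, 99.6 and 97.7 CPM at 16 weeks and 119, 115 and 77.5 CPM at 6 weeks under metformin and 256, 179 and 129 CPM at 16 weeks and 56.3, 71.2 and 55.9 CPM at 6 weeks in basal livers (-1.88 ± 0.35, adjusted p = 0.0203), but 36.8% of its words occur in C4b. Kdm1a, the histone demethylase LSD1, had another shape: 16.9, 14.4 and 14 CPM at 16 weeks and 12.4, 11.8 and 14.1 CPM at 6 weeks under metformin, and 12.7, 12.2 and 11.8 CPM at 16 weeks and 15.9, 15.3 and 15.1 CPM at 6 weeks in basal livers. Its log2 fold changes were 0.24 under metformin and -0.34 in basal livers (difference 0.58 ± 0.11, adjusted p = 0.0326), and its basal 16-week libraries overlapped with the 6-week metformin libraries.

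Gt(ROSA)26Sor, a ubiquitous non-coding RNA, differed by 1.56 ± 0.28 (adjusted p = 0.0114). Exons of Thumpd3 lie on the opposite strand there, so reads in the overlap cannot be told apart. The difference of 2810008M24Rik was 0.66 ± 0.13 (adjusted p = 0.0332). Lipi, a phospholipase with under 1.1 CPM in all 6 metformin libraries, differed by -3.18 ± 0.66 (adjusted p = 0.0411), its basal 16-week libraries having 4.24, 2.91 and 2.6 CPM. Rdh18-ps differed by -1.39 ± 0.28 (adjusted p = 0.0357), with 69.8% of its words in other transcripts. Eno1, the glycolytic enolase as named in the tables, was counted at 0.275 to 0.989 CPM under metformin and differed by 3.44 ± 0.57 (adjusted p = 0.00732). Basal livers had 0.155 to 0.22 CPM at 16 weeks and 1.44 to 1.47 CPM at 6 weeks. The log2 fold change of Eno1 was -2.94 in basal livers. Under metformin it was 0.51 (adjusted p = 0.563), and the groups overlapped. With 27.3% of its words in Eno1b and other copies, its counts are uncertain.

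Among the lists, fatty acid oxidation and the proteasome had the largest shares of genes with an unadjusted p under 0.05 for the difference between the 2 contrasts, though no gene of either was called for it. For fatty acid oxidation and ketogenesis (32 genes) the median log2 fold change was 0.11 under metformin and -0.27 in basal livers. In basal livers 11 were called lower, where 10.2% of all genes were called in either direction. The difference was positive at an unadjusted p under 0.05 in 16 of 32 genes (7.87% of all genes). With the length trend removed it was positive in 15 (8.37% positive and 5.37% negative over all genes). Without 16-week HFD metformin replicate 1 it was positive in 9 (7.53% positive over all genes). Cyp4a14, an omega-hydroxylase induced by PPARα, had log2 fold changes of -0.12 under metformin and -1.34 in basal livers (difference 1.23, adjusted p = 0.148). For Acadm, the medium-chain acyl-CoA dehydrogenase, the difference was 0.63 (adjusted p = 0.18); both were chosen after their values were seen.

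Proteasome subunits had medians of 0.24 under metformin and -0.21 in basal livers. The difference was positive at an unadjusted p under 0.05 in 24 of 31 genes (7.87% of all genes). That count was 22 with the length trend removed (8.37% of all genes) and 1 without 16-week HFD metformin replicate 1 (7.53%). The unfolded protein response had a median of 0.33 in basal livers with 1 gene called higher there, where 588 of all 14067 genes were. At an unadjusted p under 0.05, 8 of its 25 genes were higher in basal livers and none lower. Over all 14067 genes, 1672 were higher and 1898 lower at that threshold. Of its 25 genes, 2 had an unadjusted p under 0.05 for the difference, both positive (7.87% of all genes), and 7 without that replicate (7.53%). The median of the difference over the list was 0.29. For male-biased genes the medians were -0.42 under metformin and -0.67 in basal livers. In basal livers 5 were called lower, where 10.2% of all genes were called in either direction. The difference was positive at an unadjusted p under 0.05 in 1 of 19 (7.87% of all genes).

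**Figure D5:**
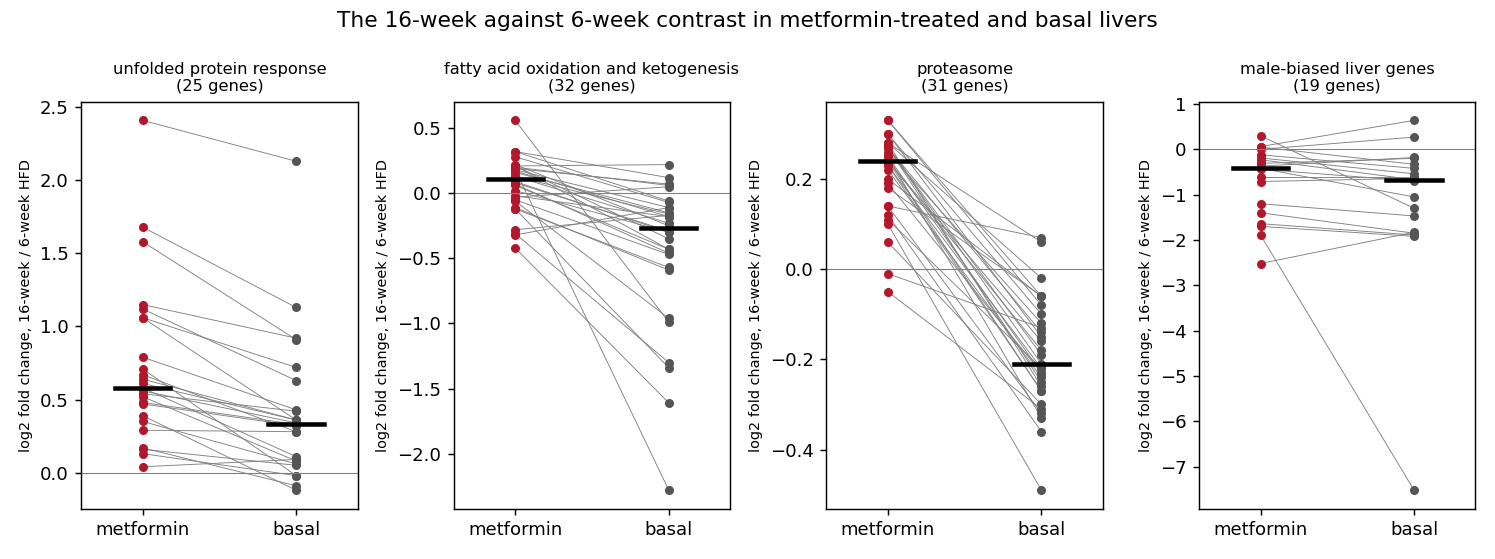
Log2 fold changes, 16-week over 6-week HFD (y axis), of each gene of 4 lists in the metformin-treated (red, left) and the basal contrast (grey, right); lines join the same gene and black bars are the list medians. Medians are 0.58 and 0.33 for the unfolded protein response, 0.11 and -0.27 for fatty acid oxidation, 0.24 and -0.21 for the proteasome and -0.42 and -0.67 for male-biased genes.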

How the data were processed

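Liver RNA was sequenced as paired reads from libraries of the first-version TruSeq RNA kit, per the labels' protocols; that kit selects poly(A) RNA and does not mark strand. The submitters' processing notes name TopHat 1.4.0, HTSeq and the build mm9, and the deposited raw counts per gene were used as they stand. The authors' normalized tables were not used here. Groups came from the sample titles and characteristics. No label says that libraries came from separate mice, so p-values measure only the spread between libraries, which may be technical; the series' design text gives at least 3 mice per group. The files of replicates were different: within a group the chi-square of 2 libraries' counts was at least 13.4 times its degrees of freedom.

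All 45 libraries were fitted with 1 coefficient per group in edgeR 4.0.16 (R 4.3.3; filterByExpr minimum count 10, which kept 14067 of 23227 genes; TMM scaling; glmQLFit and glmQLFTest), and p-values were adjusted by Benjamini-Hochberg over all genes of a test, with 0.05 as the threshold. The second test set the metformin contrast against the basal one in the same fit. Log2 CPM used a prior count of 2. Each SE was obtained as the absolute log2 fold change over the root of its F statistic. The length trend was a lowess curve (span 0.3) of each library's deviation against log10 exon length from the deposited mm9 gene models, entered as an offset. Counts per gene at these depths limit the precision to the intervals given, which rest on the spread pooled over the 14 groups. Fits were tested on simulated data with known changes. The simulation gave every group the same spread per gene and no length trend. It therefore does not cover the wider spread of the 16-week HFD metformin group or its replicate 1. Deviations of same-numbered libraries of the metformin and basal groups had correlations of 0.24, 0.15 and 0.12 at 16 weeks. At 6 weeks these were 0.41, 0.16 and 0.3, and between the 2 metformin groups -0.16, -0.16 and -0.13. The block was therefore run as a pairing for the difference. No label pairs these libraries and no correlations of unlike-numbered ones are given, so the pairing is assumed and not shown. Alternatives were RLE scaling, no filter, fits of fewer libraries, limma voom 3.58.1 with quality weights, DESeq2 1.42.0, length and GC removal, the block and leaving out each library. Leaving out 16-week replicate 1 together with the length trend, and list counts under the alternatives, were added after seeing the data.

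The groups compared and the 41 gene lists were chosen with earlier results of these data known. Named are up to 4 members of a list with the smallest adjusted p, 8 genes given always and the 10 genes of the difference test with the smallest adjusted p; some genes the rule names, 1 of those 10 among them, are not reported here; a rule for the largest changes called with and without the length trend found 0 genes. Genes with 20% or more of their 40-base words in other GENCODE M21 transcripts are given as uncertain. Exons on the opposite strand also overlap Plin4 (Hdgfrp2), Dnaja1 (Smu1), Srebf1 (Rai1), Irs2 (9530052E02Rik) and Ccdc111 (Mlf1ip).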

Additional observations from a re-analysis of the deposited data

Results flagged for a closer look

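For 9 of the named genes the 16-week against 6-week HFD log2 fold change under metformin differed from that in basal livers by the test of the difference at an adjusted p under 0.05 (edgeR quasi-likelihood test, 3 libraries in each of the 4 groups). The difference was positive for Eno1 (3.44), Gt(ROSA)26Sor (1.56), Tmed5 (1.18), 2810008M24Rik (0.66) and Kdm1a (0.58). It was negative for Lipi (-3.18), C4a (-1.88), Kcnq1ot1 (-1.62) and Rdh18-ps (-1.39). With the length trend removed, Kcnq1ot1 was at -1.25 and no longer called (adjusted p = 0.0508). All 9 kept their sign under every alternative run, but without 6-week HFD metformin replicate 2, and in a fit of the 12 libraries of the 4 groups alone, none of them was called.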

How the results depend on the processing

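Against 3 genes called for 16-week over 6-week HFD under metformin, 0 were called in the fit of the 6 libraries, of the 9 metformin libraries, of the 6 with the length trend removed, with the length trend removed, with length and GC trends removed, and with the replicate block and the length trend removed. With the replicate block there was 1 (the numbers do not pair these groups), with voom weights 1 (lower), and with DESeq2 134 (97 higher, 37 lower). Leaving out 1 library gave 0 to 753: 753 without 16-week replicate 2, 652 without its replicate 3, 9 without its replicate 1, and 0 without 6-week replicate 1 or replicate 2; each such fit leaves 2 libraries in that group. Without replicate 1 and the length trend 12 were called. Against 19 genes for the difference, there were 10 with no filter, 0 in the 12 libraries alone, 35 with the length trend removed, 8 with length and GC trends removed, 30 with the replicate block, 47 with the block and the length trend removed and 92 with DESeq2; leaving out 1 library gave 0 to 47 (12 without 16-week HFD metformin replicate 1, 4 of them among the 19). The length correlation of -0.38 ranged from -0.45 to 0.05 with 1 library left out, the reversal being that without 16-week replicate 1. Of 78 named genes of the metformin contrast, 70 kept their sign under all alternatives. The median spread of the 16-week HFD metformin group was the highest of the 14 groups whose pooled spread the 45-library fit uses; the effect on its p-values was not tested beyond the 6-library fit.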
